A study of Homo sapiens with 6 samples.

Results

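The 10 genes described here inactivate, reduce or interconvert androgens, and they were followed in VCaP cells with and without silencing of NEDD9. They were taken by gene symbol from the deposited count table, where each of the 10 had 1 row among 58735 gene identifiers. VCaP is a human prostate cancer cell line. Cells stably infected with a short hairpin RNA against NEDD9 (shNEDD9, 3 libraries) were compared with cells that carried a non-targeting hairpin (shNTC, 3 libraries). All 6 cultures were kept in DMEM with 10% foetal bovine serum, and the series names them biological triplicates. No source used here gives the number of different hairpins or of independent infections, so an effect of NEDD9 loss and an effect of a single hairpin or of a single infected line cannot be told apart. The p-values below measure the spread between these libraries.

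Androgens are cleared from prostate cells mainly by glucuronidation, in which UDP-glucuronosyltransferases (UGTs) of the endoplasmic reticulum transfer glucuronic acid from UDP-glucuronic acid to the steroid and make it water-soluble. UGT2B15, UGT2B17 and UGT2B28 conjugate dihydrotestosterone and its metabolites, and UGT2B15 and UGT2B17 are known as genes that androgens repress in prostate cancer cells. Reductases such as SRD5A1 and AKR1C3 work in the direction of more potent androgens. Oxidative enzymes of the HSD17B family act on the same hydroxyl and keto groups, and several of them have a main task in fatty acid or amino acid breakdown.

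The libraries held 3217276 to 7492244 counts in shNTC and 5956486 to 9902002 in shNEDD9. CPM, the unit used below, scales counts to the library's total over the genes that passed the filter on low counts, multiplied by a scaling factor (TMM). The detection floor was set at 3 counts, which corresponds to 0.303 to 0.943 CPM and covers counting error only. NEDD9 itself stood at 362.3, 339.3 and 365.4 CPM in shNTC and at 137.1, 138 and 135.9 CPM in shNEDD9, a 2.62-fold decrease (edgeR quasi-likelihood test, Benjamini-Hochberg adjusted p below 1e-300). All 10 luminal prostate and VCaP markers examined were expressed, with a summed level of 14741 to 14982 CPM in shNTC and 17039 to 17622 CPM in shNEDD9. KLK2 carried most of this sum, while over the 10 genes 3 were higher, 6 lower and 1 not called, with a median log2 fold change of -0.43. Among all tested genes 35.5% were called higher and 35.9% lower, at an adjusted p under 0.05. Of markers of other cells, 8 fibroblast genes summed to 31.7 to 40.5 CPM in shNTC and 56.9 to 61.8 CPM in shNEDD9, 5 endothelial genes to 1.34 to 3.14 and 1.61 to 2.35 CPM, with CDH5 at 0, and 6 immune genes to 18.3 to 25.1 and 5.71 to 6.66 CPM, with CD3E and CD68 at 0. The 6 liver genes, of interest because liver is a main site of UGT2B expression, summed to 181.0 to 199.8 CPM in shNTC and 195.0 to 202.7 CPM in shNEDD9, with ALB higher and TTR and SERPINA1 lower among the 3 that were tested (log2 fold changes 0.37, -1.10 and -0.92). The part of these markers in the results below was not tested, and in bulk RNA fewer cells of a type and less RNA per cell cannot be told apart.

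The 5 UGT2B genes lie within 1 cluster on chromosome 4 (GRCh38) and are close copies of each other, which bears on how far their counts can be assigned. The coding sequences of UGT2B15 and UGT2B17, each of 1593 bases, were identical at 1538 aligned positions (96.5%). Identity was 97.04% between UGT2B11 and UGT2B28, 94.8% between UGT2B10 and UGT2B11, and 84.7%, 84.5% and 83.7% between UGT2B15 and UGT2B10, UGT2B11 and UGT2B28. The first 90 coding bases of 4 of the genes (GENCODE release 29) are printed to show where these 4 differ. Capitals mark the bases that differ from UGT2B15 at the same position, of which there were 5 in UGT2B17, 10 in UGT2B11 and 11 in UGT2B28. UGT2B10, whose coding sequence is shorter (1587 bases), differed at 50 of these 90 positions when compared without gaps and is not printed.
UGT2B15: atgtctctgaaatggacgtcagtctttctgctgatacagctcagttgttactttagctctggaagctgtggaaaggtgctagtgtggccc
UGT2B17: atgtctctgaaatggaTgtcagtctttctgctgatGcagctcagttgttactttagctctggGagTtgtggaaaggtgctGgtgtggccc
UGT2B11: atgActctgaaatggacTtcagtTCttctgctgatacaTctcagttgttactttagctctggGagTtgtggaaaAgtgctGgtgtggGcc
UGT2B28: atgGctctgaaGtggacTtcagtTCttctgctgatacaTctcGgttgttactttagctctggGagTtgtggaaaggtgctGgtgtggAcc

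Reads that lie wholly in a stretch shared by several genes cannot be assigned to any of them. Of the 75-base words in the UGT2B15 transcript, 18.4% also occurred in a transcript of another gene, and UGT2B17 was the only such gene at this length. At 50 bases the share was 27.8% and at 100 bases 12.7%. The share at 75 bases was 16.5% for UGT2B10, 24.0% for UGT2B11, 18.4% for UGT2B17 and 14.6% for UGT2B28. For UGT2B11 the largest partner was AC111000.4 on the opposite strand, with 12.1% of the words. For UGT2B10 and UGT2B28 it was a pseudogene, UGT2B27P with 6.64% and UGT2B24P with 9.66%. The reductases and dehydrogenases were more distinct, at 2.87% for AKR1C3 (mostly shared with AKR1C2), 2.26% for HSD17B6 (shared with PRIM1 on the opposite strand), 0.915% for HSD17B4, and 0 of the words for SRD5A1 and HSD17B10. Neither the read length nor the handling of multiply mapped reads is given in the sources used here, so the UGT2B values are uncertain between paralogs, and their sum is given beside them.

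**Figure D1:**
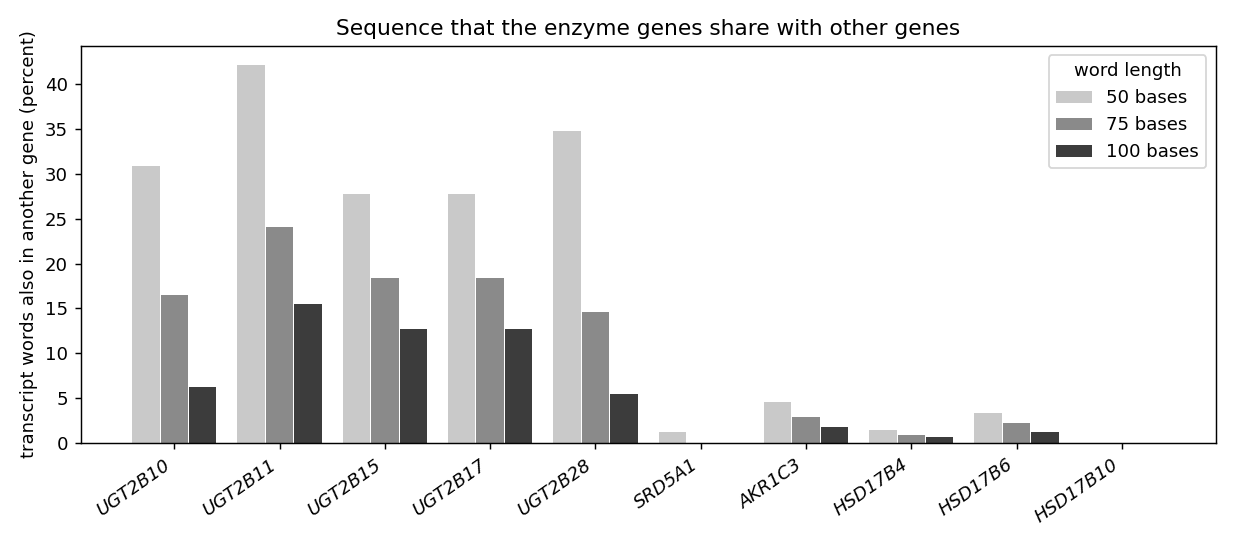
Percent of all words of 50, 75 and 100 bases in the transcripts of each gene that also occur in a transcript of another gene (y axis), for the 10 enzyme genes (x axis). The 5 UGT2B genes share 14.6% to 24.0% of their 75-base words, and the other 5 genes at most 2.87%.

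RefSeq promoters (GRCh38.p14) were listed for 7 of the 10 genes, among them UGT2B15, UGT2B10 and UGT2B11. The 250 bases before the start site of these 3 are printed, since their transcripts all had more counts in shNEDD9. They cover chr4:68670653-68670902 (minus strand), chr4:68815744-68815993 (plus strand) and chr4:69214749-69214998 (minus strand). The motifs searched, on both strands, were AGAACA, the core of androgen response elements, GTTAAT, the core of HNF1 elements, and TGTTTAC, the forkhead element. Capitals mark the matches.
UGT2B15: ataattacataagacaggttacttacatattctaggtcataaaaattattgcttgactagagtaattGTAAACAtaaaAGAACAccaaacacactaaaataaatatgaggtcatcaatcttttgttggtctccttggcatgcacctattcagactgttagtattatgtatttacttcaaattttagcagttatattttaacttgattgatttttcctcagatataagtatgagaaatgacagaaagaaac
UGT2B10: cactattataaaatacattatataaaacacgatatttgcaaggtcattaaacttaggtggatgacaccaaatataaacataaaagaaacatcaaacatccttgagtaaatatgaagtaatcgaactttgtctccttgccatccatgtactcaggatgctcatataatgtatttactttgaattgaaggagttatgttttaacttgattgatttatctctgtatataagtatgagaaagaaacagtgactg
UGT2B11: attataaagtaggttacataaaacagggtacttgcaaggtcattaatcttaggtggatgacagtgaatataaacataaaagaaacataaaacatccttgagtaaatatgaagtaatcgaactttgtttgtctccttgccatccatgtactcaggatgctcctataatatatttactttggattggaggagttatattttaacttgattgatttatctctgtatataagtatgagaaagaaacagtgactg

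UGT2B15 held AGAACA on the gene's strand 172 bases upstream of the start site and TGTTTAC on the opposite strand, printed here as its reverse complement, 183 bases upstream. The matches do not overlap. None of the 3 motifs was found in the other listed promoters of the 10 genes. Among 35116 RefSeq promoters of 300 bases, 14.8% held AGAACA, 6.88% held GTTAAT and 3.42% held TGTTTAC. Over the whole 300-base windows, the promoters of UGT2B10 and UGT2B11 were 90.1% identical, whereas UGT2B15 was 67.4% identical to UGT2B10 and 69.5% to UGT2B11. These matches describe the letters of the windows and were not tied to binding of any factor.

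Of the 10 genes, 7 passed the filter on low counts. At a threshold of 0.05 on the adjusted p, shNEDD9 had 5 of these at a higher level and 2 at a lower level. The higher genes were UGT2B15, UGT2B10, SRD5A1, HSD17B10 and HSD17B6, and the lower genes were AKR1C3 and HSD17B4. UGT2B11, UGT2B17 and UGT2B28 did not pass the filter, and UGT2B10 passed only through shNEDD9, the group in which it is high. Changes were common in this comparison: of 13958 genes tested, 71.4% were called, 35.5% higher and 35.9% lower in shNEDD9, so a call alone does not set an enzyme apart from the rest of the table. In all 7 tested genes the 2 groups of libraries did not overlap, as in 71.8% of all genes tested. The median log2 fold change was 0.71 over the 7 genes and 0.00 over all genes. The size of the change varied widely, and a smaller absolute log2 fold change was seen in 99.04% of tested genes for UGT2B15, 80.2% for AKR1C3, 79.4% for SRD5A1, 75.1% for HSD17B4, 71.0% for HSD17B10 and 45.3% for HSD17B6.

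**Figure D2:**
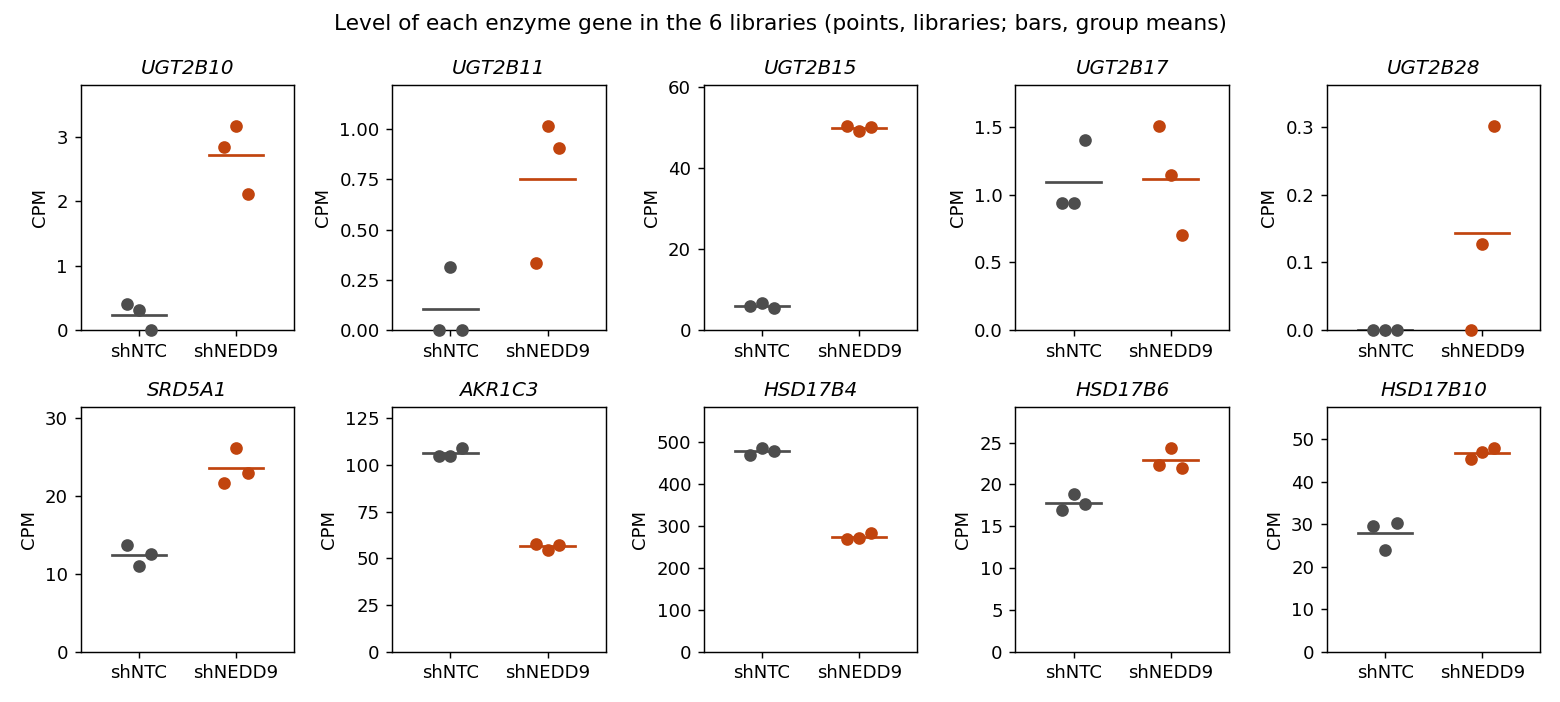
CPM (y axis, linear and scaled for each gene) in each of the 6 libraries (points) with the group mean (bar, n = 3) for the 10 enzyme genes, shNTC in grey and shNEDD9 in red. The libraries of shNEDD9 lie apart from those of shNTC in the 7 tested genes, and they overlap for UGT2B17 and UGT2B28.

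UGT2B15 (ENSG00000196620, chromosome 4, 68646630 to 68670628, minus strand) was the most abundant UGT2B gene in every library. Its level was 5.92, 6.60 and 5.32 CPM in shNTC and 50.5, 49.2 and 50.2 CPM in shNEDD9, from 44, 21 and 34 counts and 301, 387 and 498 counts. Every shNEDD9 library lay far above every shNTC library, and the shNEDD9 libraries differed little among themselves. The mean rose from 5.95 ± 0.64 to 49.98 ± 0.68 CPM (SD, n = 3 each; log2 fold change 3.10, SE 0.12, edgeR adjusted p = 8.41e-149).

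UGT2B10 (ENSG00000109181, chromosome 4, 68815993 to 68831196, plus strand) is best known for the glucuronidation of amines such as nicotine. It had 3, 1 and 0 counts in shNTC and 17, 25 and 21 counts in shNEDD9, or 0.403, 0.314 and 0 CPM and 2.85, 3.18 and 2.12 CPM. No shNTC library was above the floor of 3 counts, and all shNEDD9 libraries were. The log2 fold change was 3.40 (SE 0.54, edgeR adjusted p = 2.05e-10), in a gene that entered the test only through the counts of shNEDD9, and its size depended on single control libraries, with 4.44 without shNTC replicate 1 and 2.76 without shNTC replicate 3.

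UGT2B11 (chromosome 4, 69199951 to 69214731, minus strand) had 0, 1 and 0 counts in shNTC and 2, 8 and 9 counts in shNEDD9. The 2 groups did not overlap in CPM, as in 71.8% of all genes tested. Here this rests on 2 counts (0.336 CPM) in shNEDD9 replicate 1 against 1 count (0.314 CPM) in shNTC replicate 2. Both lie below the floor of 3 counts, so the groups are not clearly apart. The pooled ratio of shNEDD9 to shNTC was 13.8, with a counting interval of 2.19 to 572.5 (exact, 95%). Among the alternatives run, it was tested and called when no count filter was applied (edgeR adjusted p = 0.00222). Part of its exons (418 bases) lies opposite the antisense gene AC111000.4, which had 1 count in shNEDD9 and 0 in shNTC.

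UGT2B17 (chromosome 4, 68537184 to 68568527, minus strand), the closest relative of UGT2B15 among these genes, had 7, 3 and 9 counts in shNTC and 9, 9 and 7 counts in shNEDD9. Its level was 0.94, 0.94 and 1.41 CPM against 1.51, 1.14 and 0.71 CPM, and the groups overlapped. The means were 1.10 ± 0.27 and 1.12 ± 0.40 CPM (SD, n = 3 each), and the pooled ratio was 0.954 with a counting interval of 0.505 to 1.83. An increase of the size seen for UGT2B15 lies outside that interval, which covers counting error only and not reads lost or moved between the 2 genes. On the log2 scale the ratio of UGT2B15 to UGT2B17 CPM went from 2.46 in shNTC to 5.55 in shNEDD9, a comparison chosen after the values were seen.

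UGT2B28 (chromosome 4, 69280499 to 69295050, plus strand), which also conjugates androgens, had 0 counts in all 3 shNTC libraries and 0, 1 and 3 in shNEDD9. Neither group exceeded the floor in any library, and no fold is given.

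The counts were summed over the 5 genes, so that reads moved between them stay within the sum. The shNTC libraries held 54, 26 and 43 such counts and the shNEDD9 libraries 329, 430 and 538. UGT2B4 (53 counts in shNTC and 331 in shNEDD9) and UGT2B7 (12 and 118) are outside this sum. The shares below are therefore of these 5 genes only and not of all UGT2B counts. The summed level was 7.26, 8.17 and 6.73 CPM against 55.2, 54.7 and 54.2 CPM. The increase was 7.54-fold (log2 fold change 2.91, SE 0.11, edgeR adjusted p = 1.06e-152), beside 8.56-fold for UGT2B15 alone. UGT2B15 made up 81.5%, 80.8% and 79.1% of the sum in shNTC, with exact binomial 95% intervals from 60.6% to 93.4% in the shallowest library. In shNEDD9 it made up 91.5%, 90% and 92.6%. The mean share was 80.4% ± 1.24 and 91.4% ± 1.29 (SD, n = 3 each), a difference of 10.9 percentage points without overlap (two-sided exact permutation p = 0.1, the smallest that 3 against 3 libraries can give). UGT2B17 took 13.0%, 11.5% and 20.9% of the sum in shNTC and 2.74%, 2.09% and 1.30% in shNEDD9.

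**Figure D3:**
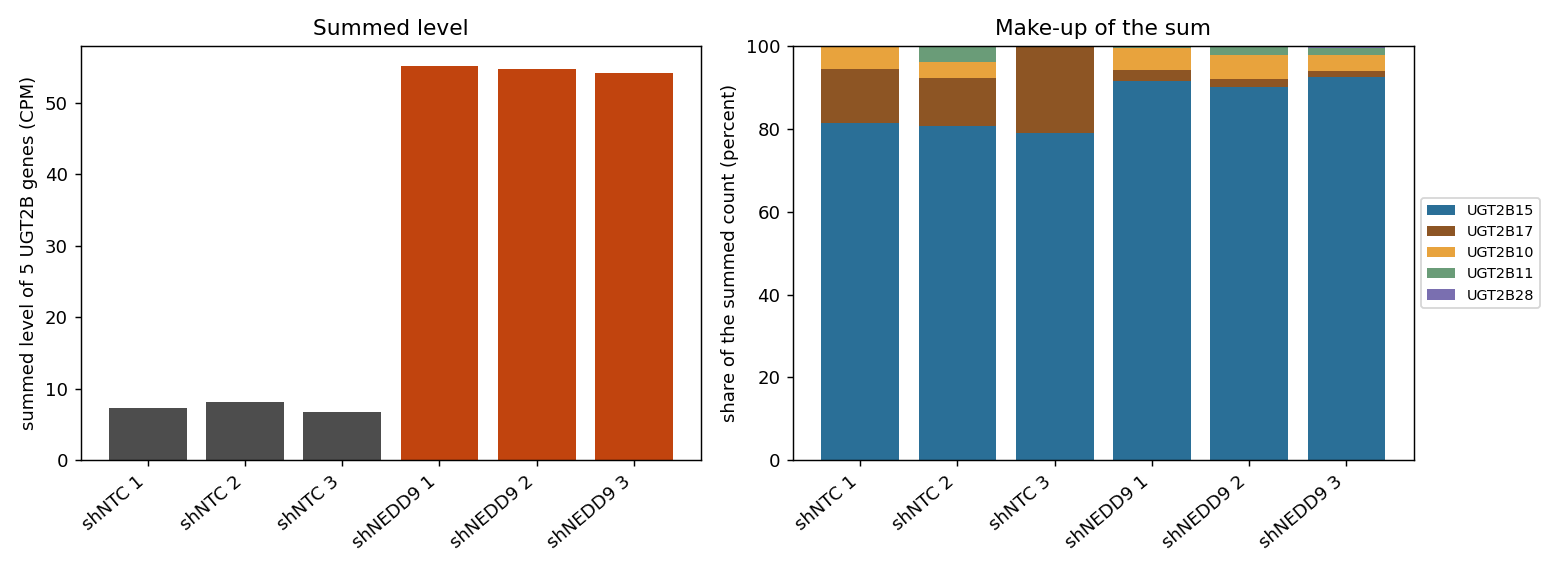
Left, summed CPM of the 5 UGT2B genes in each library (bars); right, percent of the summed counts from each gene in each library (stacked bars). The sum lies at 6.73 to 8.17 CPM in shNTC and 54.2 to 55.2 CPM in shNEDD9, and UGT2B15 is the largest part of every bar.

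Among the reducing enzymes, SRD5A1 and AKR1C3 moved in opposite directions. SRD5A1 (ENSG00000145545, chromosome 5, 6633343 to 6674386, plus strand) encodes a steroid 5α-reductase that turns testosterone into dihydrotestosterone and androstenedione into androstanedione. It was found at 13.7, 10.997 and 12.5 CPM in shNTC and 21.7, 26.2 and 23.0 CPM in shNEDD9, with no overlap. The increase was 1.86-fold (log2 fold change 0.89, SE 0.12, edgeR adjusted p = 3.43e-14).

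AKR1C3 (ENSG00000196139, chromosome 10, 5035354 to 5107686, plus strand) encodes an aldo-keto reductase that makes testosterone from androstenedione and also acts on prostaglandins. It stood at 104.6, 104.6 and 109.4 CPM in shNTC and 57.9, 54.6 and 57.2 CPM in shNEDD9. All shNEDD9 libraries were lower, by a mean of 1.88-fold (log2 fold change -0.91, SE 0.06, edgeR adjusted p = 1.35e-58).

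The 3 dehydrogenases divided as well, with HSD17B4 lower and HSD17B6 and HSD17B10 higher. HSD17B4 (ENSG00000133835, chromosome 5, 119452443 to 119637199, plus strand) encodes the peroxisomal multifunctional enzyme of fatty acid β-oxidation, which can also oxidise steroids. Its level was 468.9, 487.9 and 479.1 CPM in shNTC and 268.9, 272.5 and 284.2 CPM in shNEDD9. The decrease was 1.73-fold, with a log2 fold change of -0.79 (SE 0.03, edgeR adjusted p = 1.13e-151). FAM170A, which shares 182 exon bases with HSD17B4 on the same strand, had 0 counts in all libraries.

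HSD17B10 (ENSG00000072506, chromosome X, 53431258 to 53434373, minus strand) encodes a mitochondrial dehydrogenase of isoleucine breakdown that is also a subunit of mitochondrial ribonuclease P. It was measured at 29.6, 23.9 and 30.2 CPM in shNTC and 45.3, 46.9 and 48.0 CPM in shNEDD9, with the lowest shNEDD9 library well above the highest shNTC library. The increase was 1.63-fold (log2 fold change 0.71, SE 0.08, edgeR adjusted p = 7.62e-18).

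HSD17B6 (ENSG00000025423, chromosome 12, 56752161 to 56787790, plus strand) encodes an oxidative enzyme that can restore dihydrotestosterone from androstanediol. The shNTC libraries gave 16.9, 18.9 and 17.7 CPM and the shNEDD9 libraries 22.3, 24.4 and 22.0 CPM. The log2 fold change was 0.38 (SE 0.11, edgeR adjusted p = 0.000749), the smallest in absolute size among the tested enzyme genes. It shares 132 exon bases with PRIM1 on the opposite strand, which encodes the catalytic DNA primase subunit and rose 4.61-fold to 55.0 ± 2.37 CPM (SD, n = 3; edgeR adjusted p = 3.50e-113). The strand setting of the counting was not given in the sources used here, and the part of PRIM1 reads in the HSD17B6 value was not tested.

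**Figure D4:**
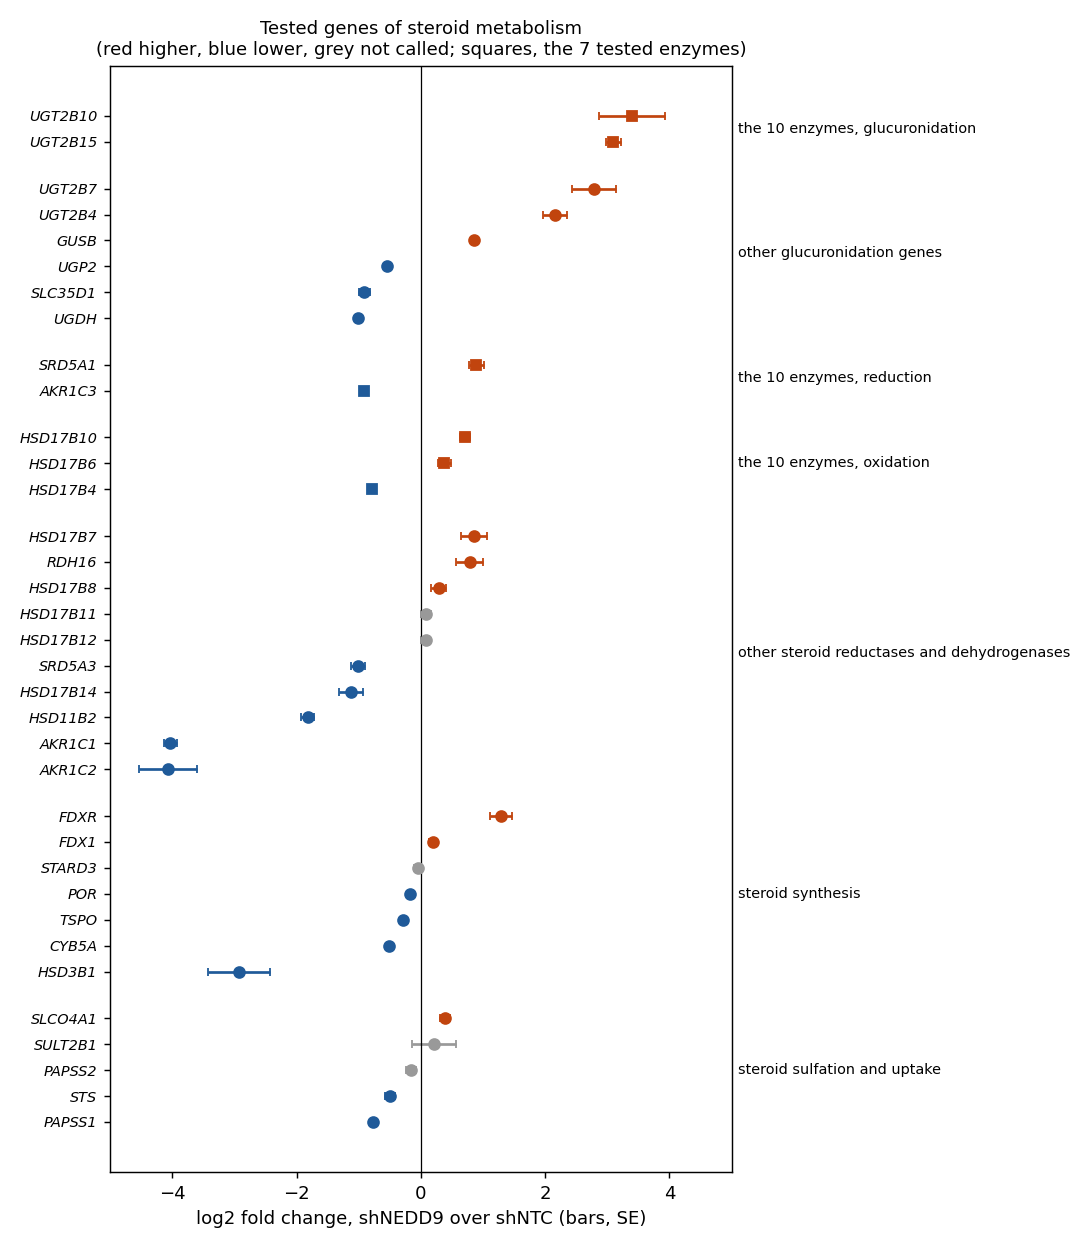
Log2 fold change, shNEDD9 over shNTC, with SE for the 7 tested enzyme genes (squares) and all tested genes of the related lists (circles), in red where called higher, blue where called lower and grey where not called. UGT2B10 and UGT2B15 lie at 3.40 and 3.10, AKR1C3 and HSD17B4 at -0.91 and -0.79.

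Compared per kilobase of exon (the union of a gene's annotated exons, which exceeds the length of any single transcript where a gene has many), the order of levels changed between the groups. In shNTC the order was HSD17B4 at 44.9 CPM per kb, HSD17B10 at 25.0, AKR1C3 at 23.4, HSD17B6 at 7.85, UGT2B15 at 2.86, SRD5A1 at 1.61 and UGT2B17 at 0.53 CPM per kb, followed by UGT2B10, UGT2B11 and UGT2B28. HSD17B10 and AKR1C3 overlapped between libraries there, as did the last 3 genes. In shNEDD9 HSD17B10 led at 41.9 CPM per kb, ahead of HSD17B4 at 25.8, UGT2B15 at 24.1, AKR1C3 at 12.5, HSD17B6 at 10.1, SRD5A1 at 3.06 and UGT2B10 at 1.41 CPM per kb. UGT2B17 at 0.54, UGT2B11 at 0.32 and UGT2B28 at 0.078 CPM per kb followed, each overlapping the next. Per kilobase, UGT2B15 thus stood next to HSD17B4 in shNEDD9. Their libraries, at 23.7 to 24.3 and 25.2 to 26.6 CPM per kb, did not overlap. The exon union was 2077 bases for UGT2B15 and 10664 bases for HSD17B4. It was also long for AKR1C3 (4532 bases) and SRD5A1 (7715 bases). In CPM, UGT2B15 and HSD17B4 stood at 49.98 and 275.2 in shNEDD9, so their closeness per kilobase depends on these lengths.

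Other genes of glucuronidation were examined as a list of 9, of which 6 were tested, 3 were higher and 3 lower (median log2 fold change 0.15). Among all tested genes 35.5% were higher and 35.9% lower. UGT2B7, a broad steroid and drug conjugating enzyme encoded in the same cluster, had 4, 4 and 4 counts in shNTC and 31, 30 and 57 in shNEDD9, and rose by 2.78 on the log2 scale (edgeR adjusted p = 4.36e-15). Like UGT2B10, it passed the filter only through shNEDD9. UGT2B4, a bile acid conjugating enzyme, was found at 2.82, 2.83 and 3.60 CPM in shNTC and 14.1, 15.3 and 12.8 CPM in shNEDD9, an increase of 2.16 on the log2 scale (edgeR adjusted p = 1.24e-29). The other 4 tested genes of the list do not encode UGT enzymes. UGDH, which makes UDP-glucuronic acid, went from 166.7 ± 5.74 to 83.1 ± 0.63 CPM (SD, n = 3 each; log2 fold change -1.01). UGP2, which makes its precursor UDP-glucose, fell by 0.54, and SLC35D1, a transporter of UDP-glucuronic acid into the endoplasmic reticulum, fell by 0.91 on the log2 scale. GUSB, the lysosomal glucuronidase that removes glucuronic acid, rose by 0.85 on the log2 scale. The log2 ratio of UGT2B15 to UGDH CPM, also chosen after the values were seen, was -4.81 in shNTC and -0.73 in shNEDD9.

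The rest of the UGT2 family was at or near the floor. UGT2A3 had 2 counts in shNTC and 9 in shNEDD9, and UGT2A1 and UGT2A2 had 0 in all libraries. Of the 6 pseudogenes, UGT2B27P had 0 and 8 counts, UGT2B25P 0 and 3, UGT2B24P 0 and 1, and the remaining 3 had none. UGT2B27P, UGT2B25P and UGT2B24P share words with UGT2B10, UGT2B11 or UGT2B28, so these counts are uncertain in the same way.

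Within 1 Mb of the span of the 5 genes (chromosome 4, 68537184 to 69295050), 27 other protein-coding genes are annotated. Of these 8 were tested, and UGT2B7 and UGT2B4 were the 2 that were higher. The 6 others were lower: CENPC by a log2 fold change of -0.56, UBA6 by -0.54, YTHDC1 by -0.23, ODAM by -0.75, the serine protease gene TMPRSS11E by -1.23 and the sulfotransferase gene SULT1B1. The call for TMPRSS11E was lost without shNTC replicate 1 (edgeR adjusted p = 0.0706) and without shNEDD9 replicate 3 (0.0550). SULT1B1 went from 43 counts to 2, a ratio of 0.0337 with a counting interval of 0.00396 to 0.129; its fitted log2 fold change was -4.63, and -7.06 without shNEDD9 replicate 2 or -3.94 without shNEDD9 replicate 3. Of the 10 tested protein-coding genes of this stretch, the 4 UGT2B genes were higher and the 6 others lower. Over all tested genes 71.4% were called, 35.5% higher and 35.9% lower in shNEDD9, and the median absolute log2 fold change was 0.42. Whether the split in this stretch exceeds that background was not tested. UGT2B10 and UGT2B7 passed the filter only through shNEDD9, and SULT1B1 and TMPRSS11E only through shNTC, so each entered this count through the group in which it is high.

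**Figure D5:**
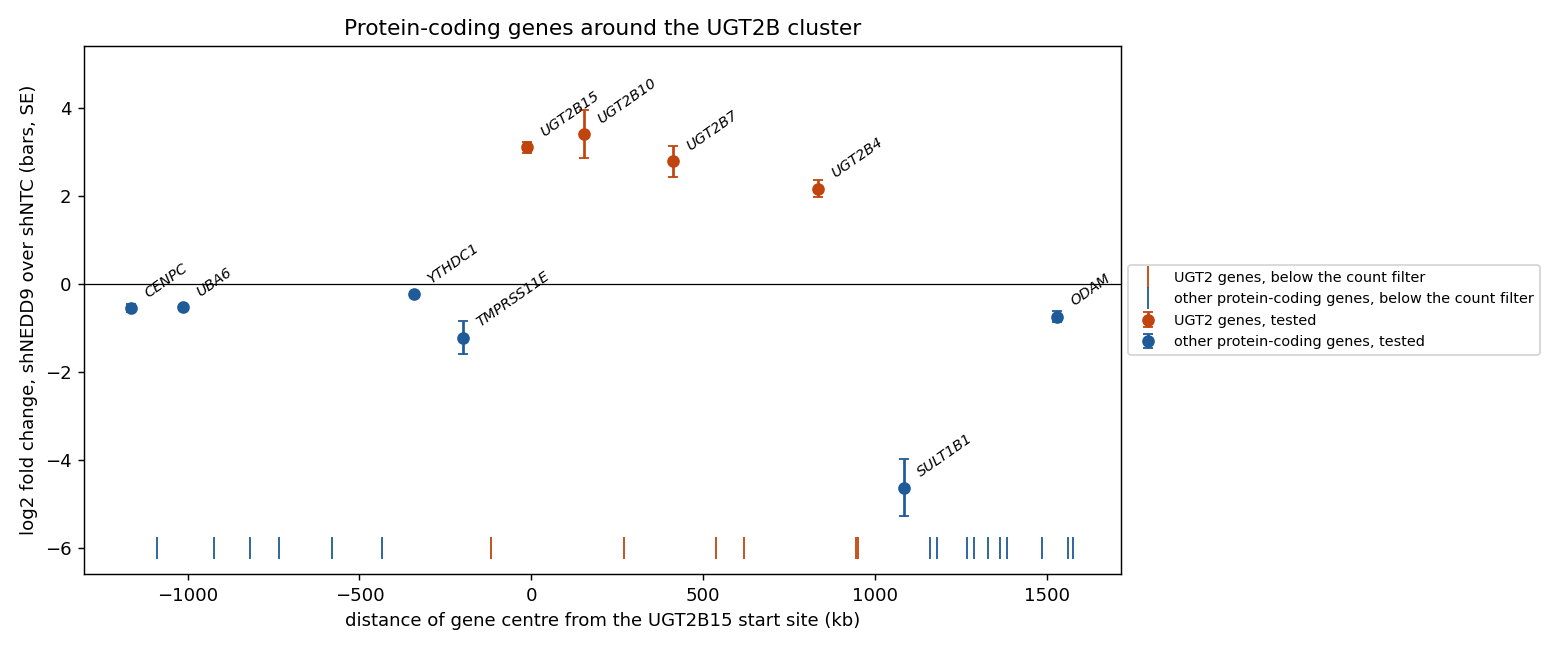
Log2 fold change with SE (y axis) of tested protein-coding genes against the distance of the gene's centre from the UGT2B15 start site in kb (x axis); ticks at the bottom mark genes below the count filter. The 4 tested UGT2B genes lie between 2.16 and 3.40, and the 6 other tested genes lie below 0.

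Of 20 other steroid reductases and dehydrogenases, 10 were tested, of which 3 were higher and 5 lower, beside 35.5% and 35.9% of all tested genes. The median log2 fold change over these 10 was -0.46. The number higher was 2 under DESeq2, with the replicate block, and without shNTC replicate 1, shNTC replicate 3 or shNEDD9 replicate 2. AKR1C1, which inactivates progesterone and is a close relative of AKR1C3, was found at 77.5, 80.1 and 85.6 CPM in shNTC and 3.86, 5.09 and 5.445 CPM in shNEDD9, a log2 fold change of -4.03 (edgeR adjusted p below 1e-300). AKR1C2, which inactivates dihydrotestosterone by reduction, had 65 counts in shNTC and 5 in shNEDD9 (log2 fold change -4.07, edgeR adjusted p = 3.28e-18), and it passed the filter only through shNTC. AKR1C1 and AKR1C2 are near-identical copies, so their counts are uncertain for shared reads. The log2 ratio of AKR1C3 to AKR1C1 CPM, a comparison chosen after the values were seen, was 0.39 in shNTC and 3.57 in shNEDD9 and did not overlap between the groups. HSD11B2, which oxidises cortisol to cortisone, went from 41.3 ± 2.01 to 11.6 ± 0.57 CPM (SD, n = 3 each; log2 fold change -1.82). SRD5A3, a family relative of SRD5A1 with a main role in dolichol synthesis and singled out after its values were seen, had a log2 fold change of -1.01, with 25.3, 24.5 and 21.8 CPM in shNTC and 11.2, 10.9 and 12.9 CPM in shNEDD9. The log2 ratio of SRD5A1 to SRD5A3 CPM was -0.95 in shNTC and 1.01 in shNEDD9. The remaining lower gene of the list was HSD17B14 (log2 fold change -1.13). The 3 higher genes were HSD17B7 (0.86), RDH16 (0.78) and HSD17B8 (0.28), and for HSD17B8 the groups overlapped.

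Of 15 genes of steroid synthesis, 7 were tested, with 2 higher and 4 lower, beside 35.5% and 35.9% of all tested genes. The median log2 fold change over these 7 was -0.18. Without shNTC replicate 1 or without shNEDD9 replicate 3, 1 gene was higher. HSD3B1, which converts dehydroepiandrosterone to androstenedione, had 40 counts in shNTC and 7 in shNEDD9 (log2 fold change -2.92, edgeR adjusted p = 5.16e-09), and it too passed the filter only through shNTC. FDXR, the reductase that feeds electrons to mitochondrial steroid hydroxylases, increased from 5.32 ± 1.15 to 12.8 ± 1.18 CPM (SD, n = 3 each; log2 fold change 1.29), and CYB5A, a cofactor of androgen synthesis, fell by 0.51. CYP19A1, CYP21A2 and CYP11B2 had 0 counts in all libraries.

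Of 11 genes of steroid sulfation and uptake, 5 were tested, 1 higher and 2 lower (median log2 fold change -0.15). The shares over all tested genes were 35.5% higher and 35.9% lower. PAPSS1, which makes the sulfate donor, fell by 0.76 on the log2 scale, STS, the steroid sulfatase, fell by 0.50, and SLCO4A1, an organic anion transporter, rose by 0.38.

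The genes most like UGT2B15 across the 6 libraries, by Euclidean distance of centred log2(CPM + 0.5) over 11445 genes whose mean reached 5 CPM, were TSC22D3 (distance 0.0794), SNHG1 (0.239) and SLC6A9 (0.25). TSC22D3 had a mean of 5.75 CPM in shNTC and 48.5 CPM in shNEDD9. For HSD17B4, the most abundant of the other enzymes by mean CPM over all 6 libraries, they were SLC23A2 (0.0398), BSN (0.0476) and TTC3 (0.0498). With 2 groups of 3 libraries, this measure mostly matches genes on the size of the difference between the groups.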

How the data were processed

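Per the labels' protocols, the 6 VCaP libraries were made from total RNA with a kit that keeps the strand. The authors deposited whole-number read counts per gene without normalisation. Per the submitters' processing notes, tools included STAR 2.5.3a, Subread 1.6.2 with featureCounts, cutadapt 1.9 and FastQC 0.11.5; hg19 and GRCh38 are listed as builds without their roles. All 58735 identifiers occur in GENCODE release 29 (GRCh38), used for coordinates and exons. A row without identifier (1) was dropped, and 27 symbols turned into dates were restored.

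Counts were tested with edgeR 4.0.16 (R 4.3.3; TMM, filterByExpr with a minimum count of 10, robust quasi-likelihood test, Benjamini-Hochberg adjustment over all tested genes, threshold 0.05). CPM values use TMM factors, which ranged from 0.993 to 1.01. Pooled count ratios have exact binomial intervals. The procedure was tested on simulated counts with 200 changed genes. That is far fewer than were called here, so the simulation does not cover a comparison with this many changes. Replicates of a group differed by only slightly more than sampling noise, with chi-square per degree of freedom of 1.14 to 1.20. The common coefficient of variation between replicates beyond counting error, from edgeR, was 1.65%. The p-values rest on this narrow spread. DESeq2 1.42.0 and limma 3.58.1 were alternatives.

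The 10 genes and the lists were chosen with earlier results of these data known. The text names all 10, every UGT2 gene, called genes within 1 Mb, and from each list up to 3 called genes of largest absolute log2 fold change whose mean reached 1 CPM. GUSB, UGP2, SLC35D1, SRD5A3, HSD17B7, HSD17B8, HSD17B14 and RDH16 were added after their values were seen, and PRIM1, FAM170A and AC111000.4 for their overlapping exons. Some marker values are not reported here.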

Additional observations from a re-analysis of the deposited data

How the results depend on the processing

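Scaling was repeated with upper-quartile factors, RLE factors and bare library totals, filtering with none and with a mean of 1 CPM as minimum, testing with limma-voom, DESeq2 and a replicate block, and each library was left out in turn. Under these 14 alternatives the 7 tested enzyme genes kept their direction and an adjusted p under 0.05, with the highest p, 0.0191, for HSD17B6. The number of enzymes called higher was 5, or 6 without a count filter, which added UGT2B11, and 2 were lower throughout. The log2 fold change of the UGT2B sum ranged from 2.85 to 2.96. The difference in UGT2B15 share ranged from 10.2 to 11.6 percentage points when a library was left out (two-sided exact permutation p = 0.2, the smallest possible with 2 against 3). UGT2B10 ranged from 2.76 to 4.44, and leaving out a shNTC library gave both ends. Of all genes, 8555 (DESeq2) to 10133 (no count filter) were called. Under DESeq2, 1 in place of 2 steroid synthesis genes was higher.

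Libraries with the same number did not deviate together (correlations of -0.03, -0.002 and 0.03 over 11446 genes). With the replicate block 9834 genes were called in place of 9964, and the UGT2B sum gave a log2 fold change of 2.92. Depth limits UGT2B10, UGT2B11, UGT2B17 and UGT2B28, which had 4, 1, 19 and 0 counts over the 3 shNTC libraries.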
